A study of Rattus norvegicus with 9 samples.

Results

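A group of 9 miRNAs of the miR-125, miR-99 and miR-10 families was followed in rat serum, out of 567 miRNAs counted in each library. They were miR-125b-5p, miR-125a-5p, miR-125a-3p, miR-99a-5p, miR-99a-3p, miR-99b-5p, miR-99b-3p, miR-10b-5p and miR-10b-3p, where 5p and 3p name the 2 arms of a hairpin precursor. They were chosen by name, with their LPD values in these libraries already known. Their LPD differences are therefore given as a description, with folds and standard errors. Where a member is said to be called in LPD (adjusted p under 0.05), that count stands beside the share called over all miRNAs and is not read as support. The comparison of EPD with Control was tested.

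The serum came from adult male Wistar rats of wild-type genotype, with small RNA libraries in 3 groups of 3. Control was the group without a stated rotenone period. The EPD group, modelling early Parkinson's disease, was injected into the peritoneum with rotenone at 2.0 mg/kg/day for 10 days. The LPD group, modelling the late disease, received the same daily dose for more than 40 days, up to a terminal stage. Rotenone inhibits mitochondrial complex I. Control samples carry the same treatment label and protocol text as the 6 rotenone samples, and no source states what was injected into Control animals.

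A miRNA guides an Argonaute protein to messenger RNAs that pair with its seed, bases 2 to 8 from the 5′ end. miR-125a and miR-125b are the mammalian counterparts of lin-4, the miRNA that times larval development in the worm. miR-10 and miR-99, with miR-100, form another old family, and the miR-10 genes lie inside Hox clusters. Genes of miR-99 or miR-100, let-7 and miR-125 stand side by side in several places of mammalian genomes and can be made from a shared primary transcript. In blood these miRNAs travel in vesicles and protein complexes, released by blood cells, endothelium and other tissues. In serum, release from fewer cells and release of less RNA per cell cannot be told apart.

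The mature sequences below are shown so that shared seeds can be set beside the levels in LPD. Some miRNAs with a shared seed differed from each other there, while others were low or without counts together. Of the 9 miRNAs, 8 had an entry in the RefSeq table (build GRCr8), all but miR-99a-5p. The seed is in capitals.
miR-125b-5p: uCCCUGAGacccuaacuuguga
miR-125a-5p: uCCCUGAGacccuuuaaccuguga
miR-99b-5p: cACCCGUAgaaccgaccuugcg
miR-10b-5p: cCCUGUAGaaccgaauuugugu
miR-99a-3p: cAAGCUCGuuucuaugggucug
miR-99b-3p: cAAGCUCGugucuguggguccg
miR-125a-3p: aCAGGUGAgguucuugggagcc
miR-10b-3p: aCAGAUUCgauucuaggggaa

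Relatives outside the group serve for comparison. They were taken from the same table.
miR-10a-5p: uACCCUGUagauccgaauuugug
miR-100-5p: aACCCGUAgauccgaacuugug
miR-351-5p: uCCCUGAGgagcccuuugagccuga

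miR-125b-5p and miR-125a-5p shared their first 13 bases and so the seed CCCUGAG. miR-351-5p had this seed too and shared 8 first bases with miR-125b-5p. miR-99b-5p and miR-100-5p shared the seed ACCCGUA, with 4 mismatches over 22 bases (C1A, A11U, C16A and C21U, the base of miR-99b-5p first, counted from its 5′ end). miR-99a-3p and miR-99b-3p shared the seed AAGCUCG. miR-10b-5p and miR-10a-5p overlapped over 21 bases with 1 mismatch, A10U, counted from the 5′ end of miR-10b-5p and with its base first. The annotated rat miR-10b-5p began 2 bases further along this shared stretch than miR-10a-5p, so the annotated seeds differed. The seed letters of miR-10a-5p were present once in the Mir10b hairpin, at position 27, and the mature miR-10b-5p began at position 28.

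The genes stood at separate places, by the same build. miR-99b-5p (chr1:67350070-67350091, plus strand) and miR-125a-5p (chr1:67350689-67350712, plus strand) lay with let-7e within the protein-coding gene Spaca6. miR-99a-3p (chr11:29687441-29687462, plus strand) and miR-125b-5p from Mir125b2 (chr11:29732588-29732609, plus strand) lay with let-7c within a long noncoding RNA, LOC103693508. miR-125b-5p can also come from Mir125b1 on chromosome 8, beside Mir100 and Mirlet7a-2. miR-10b-5p (chr3:80035886-80035907, plus strand) lay within Hoxd4. How reads were split between close relatives, such as miR-10a and miR-10b or miR-99a, miR-99b and miR-100, is not described in the sources used here.

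The libraries differed in depth by group. Total counts were 1108167 to 1539557 in Control, 1136537 to 1668807 in EPD and 132609 to 305019 in LPD. The low end of the LPD libraries was also thin: miRNAs with 1 to 9 counts numbered 150 to 157 in Control, 127 to 155 in EPD and 3, 9 and 39 in LPD. The 10th percentile of the counts above 0 was 22, 19.2 and 8 in LPD 1, LPD 2 and LPD 3, and 2 or 3 in every other library. The red cell list (5 of 6 in the matrix, none at 0) took 5.65 to 19.0% of counts in Control, 15.2 to 34.6% in EPD and 27.0 to 38.5% in LPD. The list for platelets and myeloid cells (4 of 4, none at 0) took 3.75 to 5.85%, 5.60 to 7.97% and 8.01 to 9.43% in the same order. The hepatocyte list (4 of 4, with miR-802-5p at 0 in LPD) took 46.6% in Control 2 and 2.13 to 6.35% elsewhere. The muscle list (4 of 4, with miR-133b-3p at 0 in LPD) took 0.0951 to 0.854%, 0.0282 to 0.492% and 0.0758 to 1.23%. miR-16-5p alone made up 85.4 to 94.4% of the red cell list, and not every marker followed its list. In LPD against EPD the log2 fold change was -0.27 (SE 0.66) for miR-451-5p of the red cell list and -0.57 (SE 0.38) for miR-142-5p of the platelet and myeloid list. In depth, in the thin low end and in the platelet and myeloid share LPD did not overlap the other groups, while the red cell share overlapped EPD, and the hepatocyte and muscle shares overlapped both. The part of these in the results below was not tested.

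miR-125b-5p, studied for its roles in blood stem cells and inflammation, was the most abundant of the 9 in Control and EPD. Its level, in counts scaled to a common library size by TMM (CPM), was 15147, 13934 and 11783 in the Control libraries. It was 11417, 12303 and 14146 CPM in the EPD libraries. It was 2216, 1764 and 2558 CPM in the LPD libraries. The 3 LPD values lay close together and all below the other 6, whose Control and EPD values overlapped. The mean was 2179 ± 398 CPM in LPD and 13621 ± 1704 CPM in Control (SD, n = 3 each). The fitted log2 fold change was -2.64 (SE 0.25), a level 6.25-fold lower in LPD than in Control. Against EPD, with a mean of 12622 ± 1392 CPM, it was -2.53 (SE 0.25). By raw counts, miR-125b-5p ranked 15th, 16th and 20th among all miRNAs in Control, 23rd, 18th and 17th in EPD, and 44th, 46th and 45th in LPD.

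miR-125a-5p has the same seed and was not lower in LPD. Its values were 6362, 11525 and 5221 CPM in Control, 4373, 5706 and 8524 CPM in EPD, and 9463, 6848 and 4536 CPM in LPD. The 3 groups overlapped throughout. The log2 fold change was -0.15 (SE 0.41) for LPD against Control and 0.16 (SE 0.41) for LPD against EPD. Its sign against Control turned with the library left out, between -0.40 without Control 3 and 0.44 without Control 2. Control 2, its highest Control library, was also the library rich in hepatocyte markers. The opposite arm miR-125a-3p was a minor product, with 26 to 47 counts in EPD and 20 to 25 counts in Control. In LPD it had 22, 0 and 0 counts. Those 22 counts equal the 10th percentile of LPD 1, and at the mean Control level only 6.08, 4.47 and 3.05 counts would fall to LPD 1, LPD 2 and LPD 3. No difference of miR-125a-3p was detectable at this depth.

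**Figure D1:**
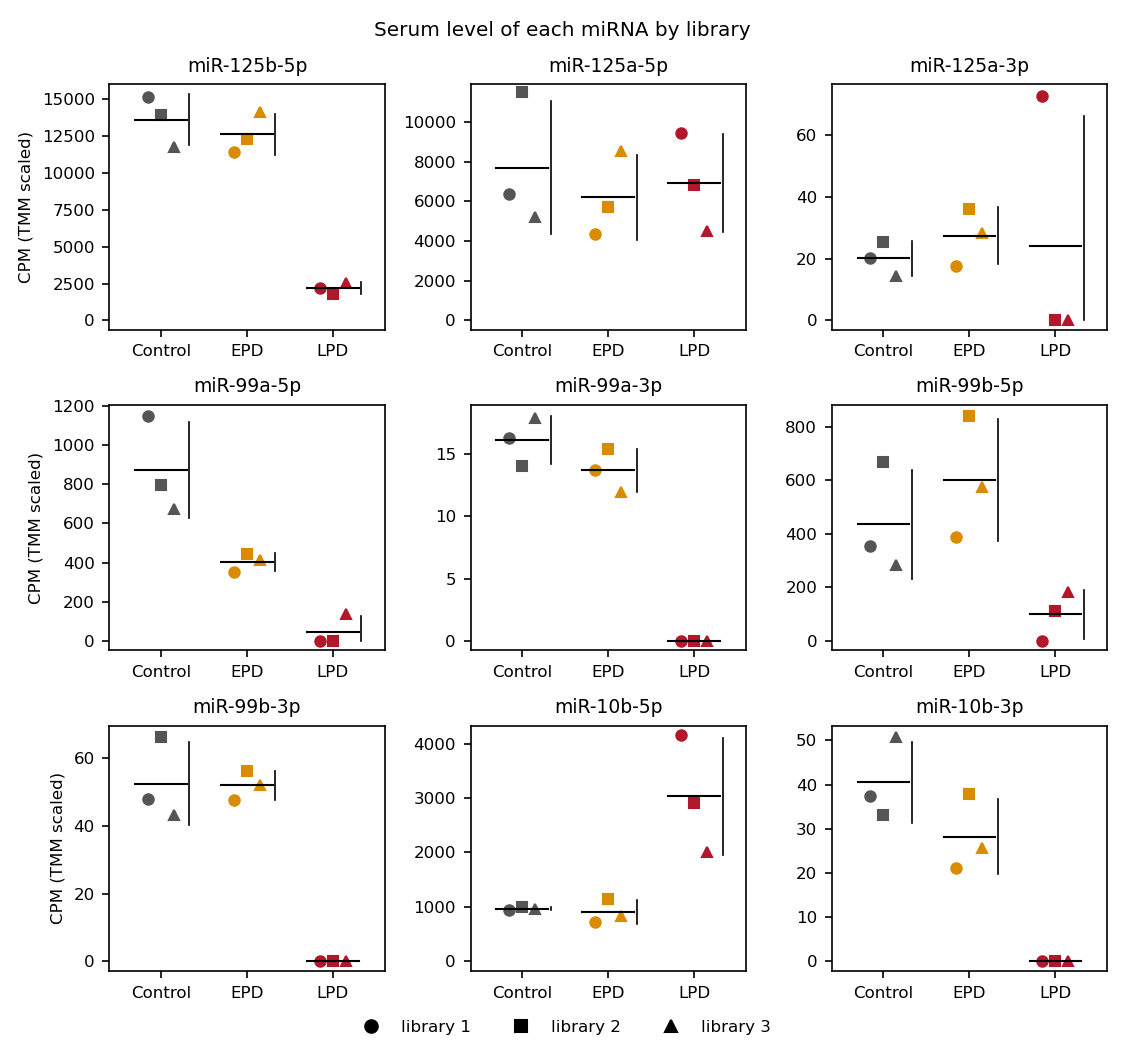
Scaled counts (CPM) of the 9 miRNAs, 1 panel each, in the Control, EPD and LPD libraries. Symbols give the library number, horizontal lines the group means and vertical lines the mean ± SD (n = 3), stopped at 0. miR-125b-5p sits at 1764 to 2558 CPM in LPD, below every other library, and miR-10b-5p at 2017 to 4157 CPM in LPD, above every other library.

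The miR-99 miRNAs were low or without counts in LPD. miR-99a-5p, a known repressor of the growth kinase Mtor in human and mouse cells, had 1407, 623 and 1167 counts in Control, 518, 577 and 654 in EPD, and 0, 0 and 21 in LPD. Scaled, that was 872 ± 245 CPM in Control, 403 ± 45.8 CPM in EPD and 46.2 ± 79.9 CPM in LPD (SD, n = 3 each). A level equal to the Control mean would have given 263, 194 and 132 counts in the 3 LPD libraries. The 263 and 194 counts for LPD 1 and LPD 2 lie far above the 10th percentile of counts above 0 there, 22 and 19.2. Both libraries had 0 counts. The fitted log2 fold change was -4.35 (SE 1.45) in LPD against Control and -3.24 (SE 1.39) in LPD against EPD, and both rest on the 21 counts of LPD 3.

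miR-99b-5p comes from another cluster and showed a like gap. It had 434, 523 and 493 counts in Control, 566, 1090 and 915 in EPD, and 0, 25 and 28 in LPD. The LPD values of 0, 112 and 185 CPM lay below the lowest value in Control, 285 CPM, and in EPD, 387 CPM. At the Control mean 132, 96.8 and 66.1 counts would fall to the LPD libraries. The log2 fold change was -2.16 (SE 1.13) in LPD against Control and -2.63 (SE 1.15) in LPD against EPD, and neither was called.

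The minor arms miR-99a-3p and miR-99b-3p, which share a seed, had no count in any LPD library. miR-99b-3p had 70, 73 and 83 counts in EPD and 59, 52 and 75 in Control. Its Control mean of 52.6 ± 12.2 CPM would give 15.9, 11.7 and 7.98 counts in the LPD libraries. miR-99a-3p had 19 or 20 counts in EPD and 11 to 31 in Control, and its Control mean would give 4.86, 3.57 and 2.44 counts in LPD. These figures lie at or below the 10th percentile of counts in each LPD library, so the zeros do not show by how much the 3p arms were lower, and no fold is given. A count of 0 allows up to 3 counts, or 9.94, 13.5 and 19.8 CPM in the LPD libraries, for counting error only.

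**Figure D2:**
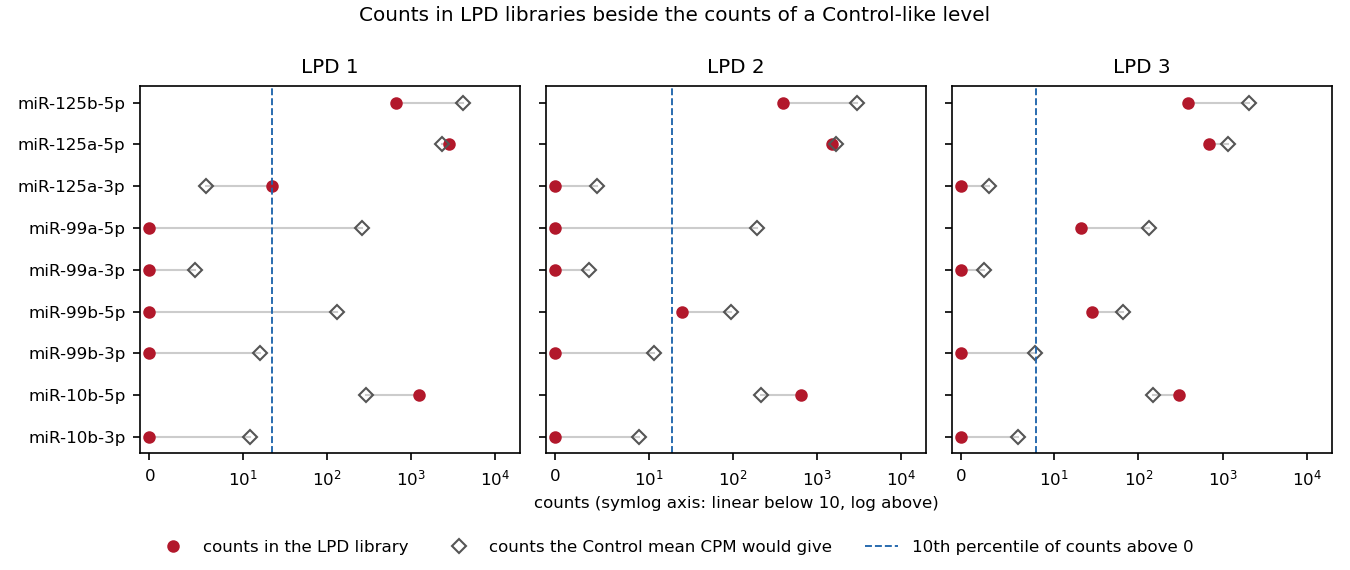
Counts of the 9 miRNAs in each LPD library (filled circles) beside the counts that the mean Control CPM would give there (open diamonds), on a symlog axis that is linear below 10 and logarithmic above. The dashed line marks the 10th percentile of the counts above 0 in that library, at 22, 19.2 and 8. miR-10b-5p lies to the right of its diamond in all 3 libraries and miR-125b-5p to the left, while the diamonds of the 3p arms lie at or left of the dashed line.

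miR-10b-5p, known from work on cell migration and vessel growth, moved the other way. It had 950, 998 and 962 CPM in Control, 729, 1155 and 841 CPM in EPD, and 4157, 2915 and 2017 CPM in LPD. All 3 LPD values lay above the other 6 and differed among themselves, while the Control values were nearly equal. The mean was 3030 ± 1074 CPM in LPD and 970 ± 25.0 CPM in Control (SD, n = 3 each). The log2 fold change was 1.64 (SE 0.34) in LPD against Control, a level 3.13-fold higher, and 1.74 (SE 0.35) in LPD against EPD. By raw counts it ranked 79th, 67th and 75th in Control, 80th, 65th and 75th in EPD, and 35th, 40th and 51st in LPD. Its raw counts in LPD, 1255, 648 and 306, stood against 781 to 1666 in Control, from libraries several times as deep.

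The opposite arm did not follow. miR-10b-3p had 46, 26 and 88 counts in Control, 31, 49 and 41 in EPD, and none in LPD. In Control and EPD there were 18.9 to 34.4 counts of miR-10b-5p for each count of miR-10b-3p. With these ratios the miR-10b-5p counts would give 36.5 to 66.3 counts of miR-10b-3p in LPD 1, 18.8 to 34.2 in LPD 2 and 8.89 to 16.2 in LPD 3. The Control level of miR-10b-3p would give fewer, 12.2 in LPD 1 and 6.15 in LPD 3, below the 10th percentile of counts there. The ratio-based figures also start near that percentile in LPD 2 and LPD 3, 19.2 and 8. Only in LPD 1 do they lie well above it, at 22. For miR-99a the ratio of 5p to 3p was 25.9 to 70.4 in Control and EPD, and for miR-99b 6.57 to 14.9, and the 5p counts in LPD would give at most 0.811 and 4.26 counts of their 3p arms.

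The contrast between miR-125b-5p and miR-10b-5p was read within each library as a log2 ratio of counts, which needs no scaling factor. A prior of 0.5 counts was added to both, and since ligation and amplification favour some sequences, only its change between groups is compared. The log2 ratio was 3.995, 3.803 and 3.61 in Control and 3.97, 3.41 and 4.07 in EPD. In LPD it was -0.91, -0.72 and 0.34. In linear terms there were 12.2 to 15.9 counts of miR-125b-5p for each count of miR-10b-5p in Control and 10.6 to 16.8 in EPD, but 0.533, 0.605 and 1.27 in LPD. All 3 LPD ratios lay below every Control and EPD ratio, with LPD 3 the closest to them. The mean was -0.43 ± 0.67 in LPD and 3.804 ± 0.19 in Control (SD, n = 3 each), a difference of -4.23, or an 18.8-fold change of the ratio. Against EPD, with a mean of 3.82 ± 0.35, the difference was -4.25. With single libraries left out the difference from Control ranged from -4.62 to -4.00.

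This ratio did not separate EPD from Control. The difference, EPD minus Control, was 0.01 (exact two-sided permutation p = 1 and adjusted p = 1 over 5 ratios, 3 against 3 libraries). Its sign turned when single libraries were left out, between -0.11 and 0.22.

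**Figure D3:**
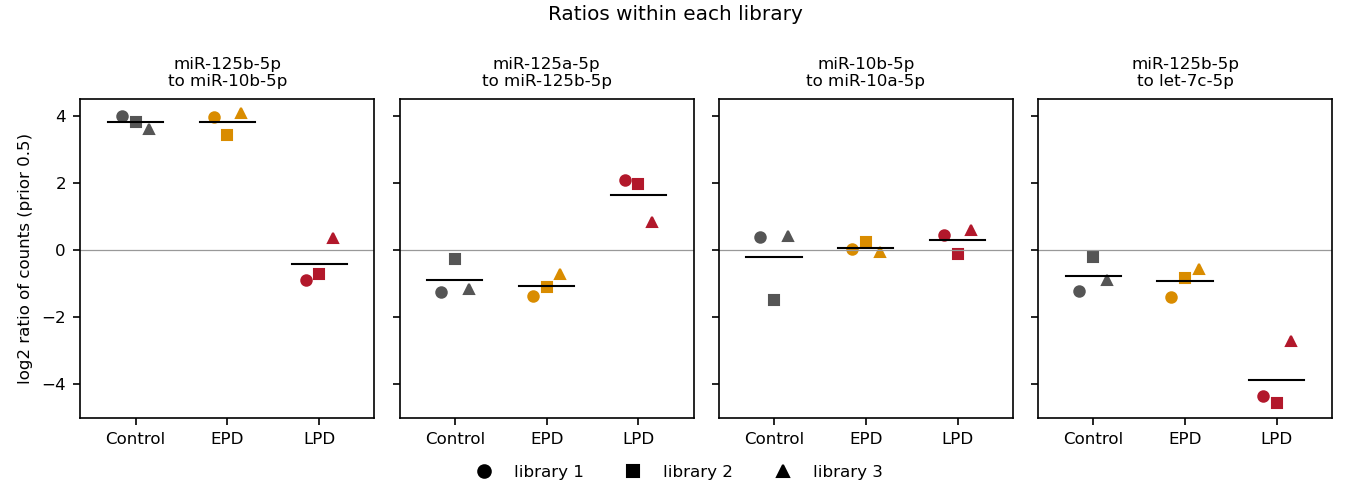
Log2 ratios of counts within each library (prior of 0.5 counts) for 4 pairs of miRNAs in Control, EPD and LPD, with symbols for the library number and lines for group means (n = 3). The ratio of miR-125b-5p to miR-10b-5p lies between 3.41 and 4.07 in all Control and EPD libraries and between -0.91 and 0.34 in LPD, while the ratio of miR-10b-5p to miR-10a-5p overlaps between the groups.

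Within the seed family, miR-125a-5p gained on miR-125b-5p in LPD. The log2 ratio of miR-125a-5p to miR-125b-5p was -1.25, -0.27 and -1.17 in Control, -1.38, -1.11 and -0.73 in EPD, and 2.09, 1.96 and 0.83 in LPD. All 3 LPD ratios lay above the other 6, while Control and EPD overlapped. The mean difference was 2.52 for LPD minus Control and 2.70 for LPD minus EPD. For EPD minus Control it was -0.17 (exact permutation p = 0.7, adjusted p = 0.875).

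The 3 ratios that involve miR-99 miRNAs separated EPD from Control without overlap, at the smallest p that 3 against 3 libraries allow. They are not independent, since the ratio of miR-99b-5p to miR-99a-5p reuses the miR-99 counts of the others. The log2 ratio of miR-99a-5p to its cluster neighbour miR-125b-5p was -5.01, -4.79 and -5.11 in EPD, against -3.72, -4.13 and -4.13 in Control. The log2 ratio of miR-99b-5p to its neighbour miR-125a-5p was -3.50, -2.76 and -3.89 in EPD, against -4.17, -4.11 and -4.20 in Control. That of miR-99b-5p to miR-99a-5p was 0.13, 0.92 and 0.48 in EPD, against -1.70, -0.25 and -1.24 in Control. The mean differences were -0.97, 0.77 and 1.57, each with an exact two-sided permutation p = 0.1 and adjusted p = 0.167 over the 5 ratios. With 3 against 3 libraries this test cannot fall below 0.05, so it cannot decide whether these ratios differ. In LPD these ratios rest on 0 to 28 counts of the miR-99 miRNAs and are not read.

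Across all miRNAs, EPD against Control gave no call in edgeR's quasi-likelihood test, 0 of 294 tested (0%). At an unadjusted p below 0.05 there were 11, while limma-voom called 0 and DESeq2 called 1. All 9 miRNAs of the group entered the test and 0 were called, each at an adjusted p = 0.995. The log2 fold changes ran from -1.11 for miR-99a-5p (SE 1.23) to 0.46 for miR-99b-5p (SE 1.06), with a median of -0.11, beside -0.05 over all 294. miR-125b-5p had -0.11 (SE 0.24) and miR-10b-5p -0.09 (SE 0.34). One of the 9, miR-99a-5p, did not overlap between EPD, with 354, 445 and 411 CPM, and Control, with 1146, 796 and 674 CPM. Such a gap was found for 38 of the 294 (12.9%), so 1 of 9 is near the background.

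In LPD against Control, 96 of the 294 were called lower (32.7%) and 13 higher (4.42%). Of the 9, 5 were called lower (miR-125b-5p, miR-99a-5p, miR-99a-3p, miR-99b-3p and miR-10b-3p), 1 higher (miR-10b-5p) and 3 not called. In LPD against EPD, 96 were called lower (32.7%) and 12 higher (4.08%), and of the 9, 4 lower and 1 higher. Both comparisons share the LPD libraries, and nothing is read from these counts, since the LPD values chose the group. The median log2 fold change in LPD against Control was -2.64 over the 9 and -1.04 over all 294. Of the 294, 68 had no count in any LPD library, the 3 minor arms among them. With such miRNAs set to the floor of 3 counts per library, the medians were -1.49 and -0.60. Among the 124 miRNAs with counts in all 9 libraries, miR-125b-5p had the 9th lowest fold change in LPD against Control, miR-10b-5p the 6th highest, and miR-125a-5p was 65th from the lowest.

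Over the alternative analyses the log2 fold change in LPD against Control ranged from -2.77 to -2.38 for miR-125b-5p and from 1.58 to 2.07 for miR-10b-5p. These are the differences with which the pair was chosen. The miR-99a-5p call against Control was kept in 7 of 16. It was lost with library totals, with only LPD and Control in the fit, and without any 1 of the Control libraries, the EPD libraries or LPD 2. miR-125a-3p was called lower only without LPD 1, the library that held its 22 counts, and miR-99b-5p only in LPD against EPD without LPD 1.

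**Figure D4:**
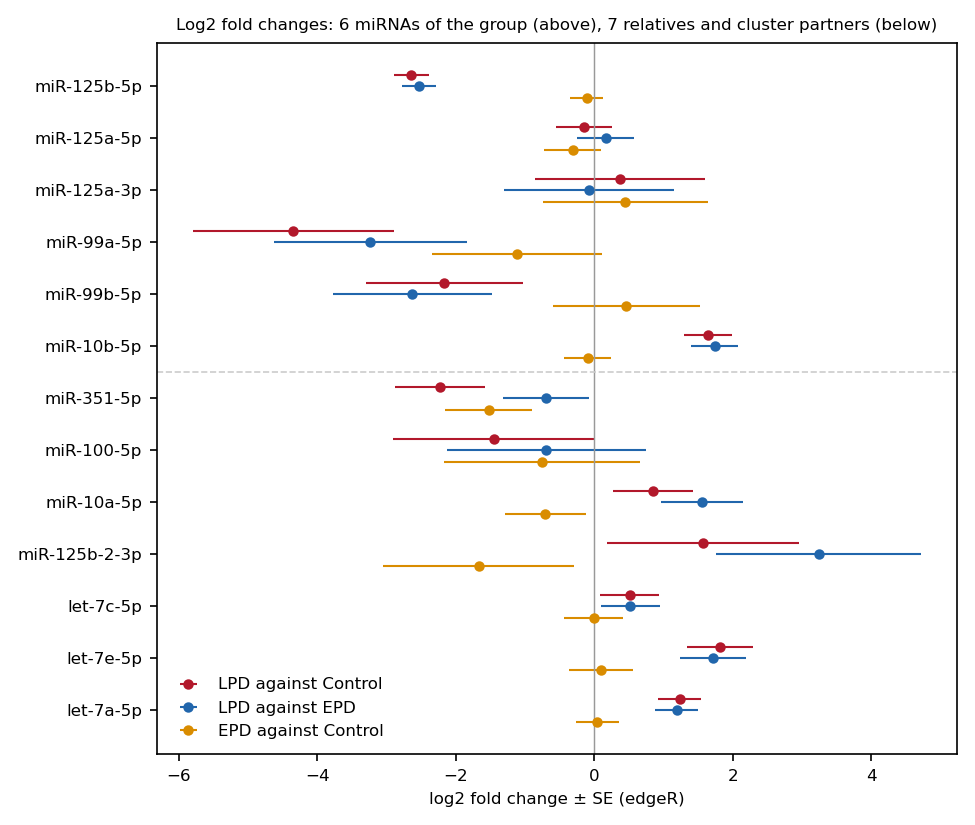
Log2 fold changes ± SE from edgeR for 6 miRNAs of the group (above the dashed line) and 7 relatives and cluster partners (below it), in LPD against Control, LPD against EPD and EPD against Control. miRNAs without counts in LPD are left out, as is let-7c-2-3p, whose counts equal those of let-7a-1-3p in all 9 libraries. miR-125b-5p lies at -2.64 and -2.53 and miR-10b-5p at 1.64 and 1.74 in the LPD comparisons, and both lie within 1 SE of 0 in EPD against Control.

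The relatives and cluster partners, 15 listed and 11 tested, went in both directions. In LPD against Control 2 were called higher (4.42% of all miRNAs), let-7a-5p (1.24, SE 0.31) and let-7e-5p (1.81, SE 0.48), and 4 lower (32.7% of all), a share near the background. The 4 were miR-351-5p (-2.23, SE 0.64) and the minor arms miR-10a-3p, miR-125b-1-3p and let-7c-1-3p, which had no count in LPD. In LPD against EPD 2 were called higher and 3 lower, and in EPD against Control 0 of the 11 were called. Against Control let-7e-5p lost its call without Control 3, miR-351-5p in 4 of 17 alternatives (only 2 groups, without Control 1, Control 3 or LPD 2) and let-7c-1-3p in 5 of 15 (DESeq2, no filter, without each LPD library). Against EPD the call was lost in 4 of 17 alternatives for let-7a-5p, in 5 of 17 for let-7e-5p, in 1 of 15 for let-7c-1-3p and in 8 of 15 for miR-125b-1-3p, mostly with an LPD or EPD library left out.

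miR-10a-5p, whose letters differ from miR-10b-5p at 1 base of the overlap, had 724, 2805 and 718 CPM in Control, 724, 993 and 886 CPM in EPD, and 3084, 3208 and 1345 CPM in LPD. Control 2 stood apart from the other Control libraries and overlapped LPD. The log2 fold change was 0.85 (SE 0.58) in LPD against Control, not called, and 2.03 and called without Control 2. In LPD against EPD it was 1.55 (SE 0.59), not called, and called in 7 of 17 alternatives. All LPD values of miR-10a-5p lay above its EPD values. The log2 ratio of miR-10b-5p to miR-10a-5p, added after the data were seen, was 0.43, -0.14 and 0.58 in LPD, against 0.39, -1.49 and 0.42 in Control. How reads of these near-identical sequences were split is not described, so how much of the miR-10b-5p level belongs to either miRNA is not known. The opposite arm miR-10a-3p had no count in LPD, like miR-10b-3p, against 23, 52 and 56 in Control.

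miR-351-5p, a rodent miRNA with the miR-125 seed, had 960, 367 and 758 CPM in Control, 286, 202 and 235 CPM in EPD, and 262, 126 and 52.7 CPM in LPD. The EPD values did not overlap Control, and the difference was not called, at a log2 fold change of -1.53 (SE 0.62, adjusted p = 0.995 in edgeR). miR-100-5p had 183, 111 and 126 CPM in Control, 67.6, 79.3 and 102 CPM in EPD, and 149, 0 and 0 CPM in LPD. Its EPD values, too, lay below Control without overlap (-0.75, SE 1.42, adjusted p = 0.995 in edgeR). These were 2 of the 11 relatives, where 12.9% of all miRNAs showed such a gap.

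The 5p arms of the let-7 partners were not lower in LPD along with miR-125b-5p and the miR-99 miRNAs. let-7c-5p, encoded beside miR-99a and Mir125b2 and also at Mirlet7c2, had 35221, 16338 and 21889 CPM in Control, 30163, 21849 and 21005 CPM in EPD, and 45653, 42219 and 16924 CPM in LPD. Its log2 fold change in LPD against Control was 0.51 (SE 0.42), and the groups overlapped. This rests on LPD 3: without it the log2 fold change was 1.08 and called. The minor arms let-7c-1-3p and let-7e-3p had no count in LPD. The log2 ratio of miR-125b-5p to let-7c-5p, added after the data were seen, was -0.78 ± 0.50 in Control, -0.93 ± 0.43 in EPD and -3.89 ± 1.01 in LPD (SD, n = 3 each). let-7e-5p, encoded between miR-99b and miR-125a, had 2855, 1998 and 857 CPM in LPD, against 731, 372 and 521 CPM in Control. The log2 ratio of its neighbour miR-125a-5p to let-7e-5p, also added later, was 1.97 ± 0.37 in LPD and 3.799 ± 1.004 in Control (SD, n = 3 each). Members of both clusters thus differed from each other in LPD: in the chromosome 1 cluster let-7e-5p was higher, miR-125a-5p overlapped Control and miR-99b-5p lay below it.

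The passenger arms of miR-125b had low counts. miR-125b-2-3p had 70, 18 and 53 counts in Control, 36, 8 and 6 in EPD, and 0, 23 and 35 in LPD. In LPD 2 and LPD 3 that was 103 and 231 CPM, above the Control values of 57.0, 23.0 and 30.6 CPM, while LPD 1 had none. The log2 fold change was 1.57 (SE 1.39) in LPD against Control and was not called. miR-125b-1-3p had no count in LPD, against 46, 6 and 22 in Control, and its Control level would give 5.82, 4.28 and 2.93 counts in LPD. These figures lie below the 10th percentile of the counts above 0 in each LPD library, 22, 19.2 and 8. The zeros therefore cannot show whether the passenger arms differed from each other.

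The profile of each lead miRNA was set beside the 121 other miRNAs with counts in all 9 libraries, by the root-mean-square distance of log2 CPM centred on its mean. The closest to miR-125b-5p were miR-205 (0.57), miR-191a-5p (0.58) and miR-29a-3p (0.60), where the median distance was 1.30. The closest to miR-10b-5p were miR-126a-5p (0.30), let-7e-5p (0.38) and let-7a-5p (0.39), with a median of 1.20. The distance between miR-125b-5p and miR-10b-5p was 2.03. All 9 libraries and their scaling are shared by these profiles, and the distances are a description only.

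Over all members, the share of a library's counts was 2.23 ± 0.40% in Control, 2.11 ± 0.51% in EPD and 1.30 ± 0.25% in LPD (SD, n = 3 each). The 4 miR-99 miRNAs took 0.130% in Control, 0.110% in EPD and 0.0163% in LPD. The 2 miR-10b arms took 0.0974%, 0.0961% and 0.317% in the same order.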

How the data were processed

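The deposited values are raw counts per mature miRNA, as a matrix of the whole series and as single-library files by the authors, and 0 of 5103 values differed between them. Per the labels' protocols, RNA came from a miRNeasy serum kit and libraries from the QIAseq miRNA kit. Per the submitters' processing notes reads were placed on mRatBN7.2, while the sequences shown come from GRCr8. For the aligner and the use of the kit's molecular identifiers no source is at hand. PCR reads without such identifiers are not independent molecules, so the floors given cover counting error alone.

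Groups and replicate numbers came from the sample titles. The titles name separate samples, and p-values measure the spread between them, which may be technical. Pairs of libraries within a group differed by more than the sampling noise of independent reads (lowest chi-square divided by its degrees of freedom, 30.7, for LPD 1 and LPD 2). Whether the reads are independent is not known here, so excess over the sampling of molecules is not shown for that pair. No label gives a batch.

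Counts were analysed with edgeR 4.0.16 in R 4.3.3: filterByExpr by group (minimum count 10, minimum total 15, leaving 294 of 567), TMM scaling, a robust quasi-likelihood fit of all 3 groups without covariates, and Benjamini-Hochberg adjustment over all 294 at 0.05. CPM values use the TMM factors. DESeq2 1.42.0 and limma-voom (limma 3.58.1), other scalings and filters, a replicate block, 2 groups alone and each library left out served as alternatives. Ratios within libraries were tested for EPD against Control by exact two-sided permutation, whose smallest p is 0.1 with 3 against 3 libraries, and adjusted over 5 ratios. Scripts were tested on simulated counts.

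The named miRNAs were the 9, a list of 15 relatives and cluster partners, and the 3 nearest profiles to miR-125b-5p and to miR-10b-5p. The members and all lists were chosen with earlier results of these data known. A fitted fold is not printed for a miRNA at 0 in all LPD libraries, since it depends on the prior count.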

Additional observations from a re-analysis of the deposited data

How the results depend on the processing

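In both LPD comparisons no member reversed a called direction: of 146 alternative values each, 20 moved by more than the spread between replicates against Control and 24 against EPD. In EPD against Control no member was called in any alternative, and 19 of 147 values changed sign. The miRNAs called in EPD against Control numbered 1 with DESeq2 and 1 among miRNAs with counts in all 9 libraries, and 0 to 1 with a library left out (1 without Control 2), none of them a member. In LPD against Control 38 were called among miRNAs with counts in all 9 libraries, where fewer are tested, and 52 with only the 2 groups in the fit. In LPD against EPD these were 35 and 67. Members called fell to 2 in both LPD comparisons with counts in all 9 libraries, since 3 members could be tested. The log2 fold changes in EPD against Control that changed sign were as follows. miR-99b-3p had 0.11 with library totals, 0.034 with limma-voom, 0.13 with no filter, 0.0070 with the replicate block and 0.071 with only the 2 groups. let-7c-5p had 0.033 with limma-voom, 0.14 with no filter, 0.019 with the block and 0.088 with the 2 groups. With no filter miR-125b-5p had 0.035, miR-10b-5p 0.057 and let-7c-2-3p 0.028. let-7a-5p had -0.026 with counts in all 9 libraries. With a library left out the ranges were -0.18 to 0.030 for miR-125b-5p, -0.59 to 0.21 for miR-125a-5p, -0.089 to 0.31 for miR-99b-3p, -0.29 to 0.12 for miR-10b-5p, -0.97 to 0.38 for miR-10a-5p, -0.57 to 0.43 for miR-10a-3p, -0.093 to 0.23 for let-7a-5p, -0.11 to 0.39 for let-7c-5p, -0.012 to 0.42 for let-7e-5p and -0.21 to 0.025 for let-7c-2-3p. The ratio of miR-125b-5p to miR-10b-5p, EPD minus Control, ranged from -0.11 to 0.22. The cause was not tested. Replicate numbers gave no clear pairing of the samples: of 9 same-number pairs 3 correlated above 0.1 (-0.19 to 0.28), though 6 of 9 libraries correlated best with their own number. With 3 libraries per group these correlations cannot exclude a pairing. With the replicate block 101 miRNAs were called in each LPD comparison and 0 in EPD against Control, and of the members 6 against Control and 5 against EPD. Scaling moved the median log2 fold change of all miRNAs in LPD against Control by 0.18 with library totals and 0.21 with RLE factors, and limma-voom by -0.70. In LPD against EPD it moved by 0.28 with RLE factors and -0.69 with limma-voom. The 3p arms are the least certain in LPD: their Control level would give counts there at or below the 10th percentile of the counts above 0.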
